A study of Homo sapiens with 6 samples.

Results

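Long noncoding RNAs of the nucleus and of melanoma were examined in newly made RNA from A375 melanoma cells with and without PRL3 expression. The group holds 8 named genes, MALAT1, NEAT1, KCNQ1OT1, NORAD, PVT1, TUG1, OIP5-AS1 and SAMMSON, which were taken by symbol and matched to the Ensembl identifiers of the count files. All 8 were found among the 58243 gene identifiers, and all 8 passed the filter on low counts, which left 23884 genes for testing, 4764 of them other genes annotated as long noncoding RNA (lncRNA).

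A375 is an established human melanoma cell line. In 3 libraries (EV, replicates B1, B2 and B3) the cells had been stably transfected with an empty vector, and in the other 3 (PRL3, replicates B9, B10 and B11) with a plasmid for human PRL3, an HA-tagged phosphatase whose gene is PTP4A3. Cells of both groups were kept in Hygromycin B at 100 µg/ml and given 500 µM 4-thiouridine (4sU) for 20 min, and the labelled RNA was pulled down through biotin, depleted of ribosomal RNA and sequenced with a kit that keeps the strand. The question for these genes was how much of each was in the labelled RNA and whether that differed between PRL3 and EV. Each group is 1 stable line, whether a line was 1 clone or a pool is not given in the sources used here, and nothing says that the replicates were separate cultures, so the p-values measure the spread between these libraries, which may be technical.

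A lncRNA is a long transcript that is not translated, and several of these genes are known for work inside the nucleus. MALAT1 RNA collects in nuclear speckles, where splicing factors are stored, and NEAT1 is the scaffold of paraspeckles, nuclear bodies held together by RNA-binding proteins such as NONO. KCNQ1OT1 is made antisense to KCNQ1 from the paternal chromosome and silences imprinted neighbours, NORAD binds Pumilio proteins, PVT1 lies beside MYC, OIP5-AS1 (also called Cyrano) is antisense to OIP5, and SAMMSON lies beside MITF and is known as a melanoma lncRNA.

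The libraries held 36532207 to 57952035 counts on genes. PTP4A3 had 161 to 279 normalized counts in EV and 22065 to 28767 in PRL3, so the labels and the transgene went together. Reads that aligned uniquely but outside annotated exons on the counted strand were 33.3% ± 6.8 (SD, n = 3) of the uniquely aligned reads in EV and 66.3% ± 3.2 (n = 3) in PRL3, with no overlap between the groups. This difference moves with every comparison given here, its part in the results was not tested, and a batch in which the PRL3 libraries were made cannot be told apart from PRL3 itself. Of 8 melanocyte lineage markers, SOX10, MITF and S100B were well counted, PMEL reached 61 reads and MLANA, TYR, TYRP1 and DCT reached 2, 1, 20 and 11 reads at most. The summed normalized counts of that list were 23486 to 32801 in EV and 13531 to 16937 in PRL3. Most of this sum was SOX10, with means of 22796 in EV and 12613 in PRL3. S100B had means of 2859 and 1096, and MITF went the other way, with 1378 and 1773. Markers of immune, fibroblast and endothelial cells stayed at or under 157 reads each, and of 4 epithelial markers only KRT14 went above 21 reads.

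The members covered a wide range of levels. On a scale of counts per kilobase of annotated exon per 1000000 gene counts, the order in EV was MALAT1 at 252 ± 51 (SD, n = 3), NORAD at 36.7 ± 4.5, NEAT1 at 24.7 ± 6.2, TUG1 at 6.6 ± 1.0, then KCNQ1OT1 at 2.17 ± 0.39, OIP5-AS1 at 1.78 ± 0.36 and PVT1 at 1.67 ± 0.48, with SAMMSON last at 0.350 ± 0.029. The ranges of the 3 libraries did not overlap between neighbours in this order except among KCNQ1OT1, OIP5-AS1 and PVT1. In PRL3 the first 4 places were the same, with MALAT1 at 520 ± 139, NORAD at 64.3 ± 7.0, NEAT1 at 29.96 ± 4.2 and TUG1 at 12.2 ± 1.4, and PVT1 at 4.32 ± 0.35 stood above OIP5-AS1 at 3.88 ± 0.28. Among tested genes with an annotation, MALAT1 ranked 165 by this level in EV and 46 in PRL3. These levels carry no TMM scaling, and with library size alone the median log2 fold change over all tested genes was 0.60. The exon lengths come from a later annotation release than the counts, and the exons annotated in it for PVT1 and SAMMSON fill 6.48% and 3.03% of their spans.

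**Figure D1:**
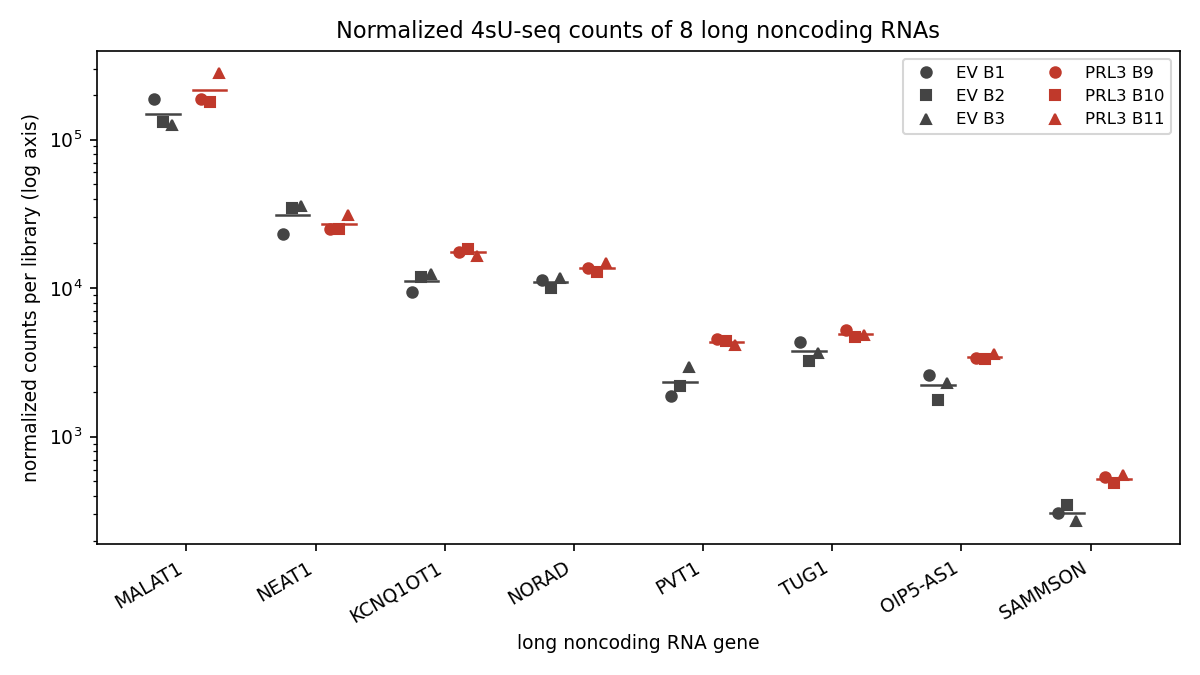
Normalized counts (vertical log axis) of the 8 long noncoding RNA genes in each library, EV in grey and PRL3 in red, with short lines at the group means of 3 libraries. The libraries of the groups overlap for MALAT1 and NEAT1 and lie apart for the other 6 genes.

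With TMM scaling and edgeR's quasi-likelihood test, KCNQ1OT1, PVT1, OIP5-AS1 and SAMMSON were higher in PRL3 than in EV, and no member was lower. These calls depended on the scaling, since none of the 4 passed when all uniquely aligned reads set the scale. The count of 4 in 8 stands against 20% of all tested genes called higher and 22.7% called lower. Of the other lncRNA genes 27.8% were called higher and 2.18% lower. Of the 197 of these with a mean of at least 1000 normalized counts, 65.5% were called higher and 4.57% lower. All members but SAMMSON reached that mean. The counts in the lists of partner and neighbour genes below stand against the shares of all tested genes too. For 6 of 8 members every PRL3 library was above every EV library. How many of all tested genes lay apart in this way was not counted, so this number has no baseline here. The exact two-sided permutation test of each of these 6 members gave p = 0.1, the smallest that 3 libraries against 3 can give. The median log2 fold change of the members was 0.59, beside 0.11 over all tested genes, 0.71 over the other lncRNA genes and -0.15 over protein-coding genes, of which 31.7% were called lower. Against their own class, 6 of 8 members lay below the median of the other lncRNA genes, with 14.8% of these genes below NEAT1, 33.1% to 46.9% below NORAD, TUG1, MALAT1, OIP5-AS1 and KCNQ1OT1, 52.8% below SAMMSON and 58.5% below PVT1.

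**Figure D2:**
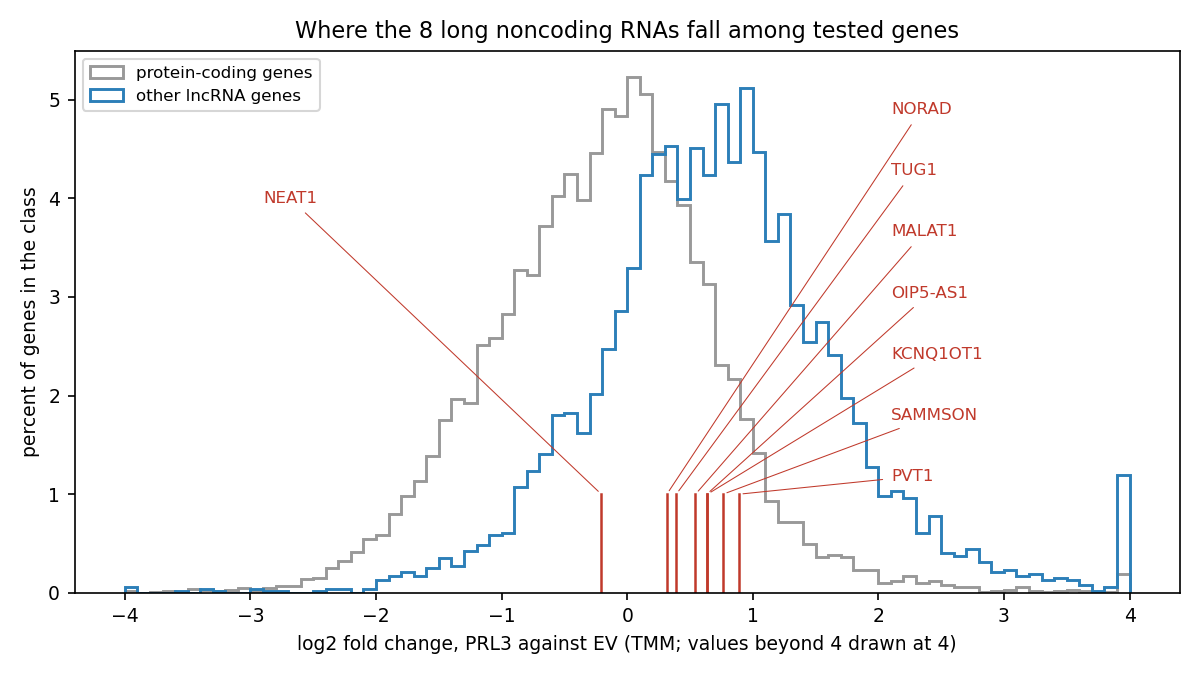
Distribution of log2 fold changes, PRL3 against EV, for protein-coding genes (grey) and other lncRNA genes (blue), as the percent of genes of each class in each bin, with the 8 members marked by red lines of arbitrary height. The class of lncRNA genes is centred at 0.71 and that of protein-coding genes at -0.15, and all members but NEAT1 lie above 0.

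PVT1 (chr8:127794526-128187101, GRCh38, plus strand, 190 annotated transcripts) is a lncRNA gene downstream of MYC and a frequent site of amplification and breakage in cancer. Its normalized counts were 1880, 2209 and 2959 in EV B1, B2 and B3, and 4514, 4417 and 4130 in PRL3 B9, B10 and B11. Every PRL3 library was above every EV library, and the EV libraries spread more widely than the PRL3 ones. The log2 fold change was 0.89 (SE 0.18, adjusted p = 0.00122 by edgeR). MYC had 2047 ± 518 normalized counts in EV and 2411 ± 301 in PRL3, a log2 fold change of 0.24 that did not pass (SE 0.19, adjusted p = 0.339). Of 3 tested genes around PVT1, MYC, GSDMC and CYRIB, none passed in either direction, while 2 passed as higher with library size alone and 1 as lower with all uniquely aligned reads. Of the annotated genes on the same strand inside PVT1, 4 were tested and MIR1206, a microRNA gene, was higher (log2 fold change 1.68, adjusted p = 0.0113). Reads there can belong to PVT1 itself, so MIR1206 is uncertain as a separate gene.

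SAMMSON (chr3:69999550-70518064, plus strand) was counted at 253 to 652 reads per library, the fewest of the members, for which counting error alone is at most 6.29%. The normalized counts were 308, 347 and 270 in EV and 534, 485 and 549 in PRL3. The groups did not overlap, and the log2 fold change was 0.76 (SE 0.21, adjusted p = 0.00904). Among 6 genes listed with SAMMSON as neighbours or partners, 1 was higher and 3 were lower. The higher one was FOXP1, a transcription factor gene on the same chromosome, with 712 ± 43 normalized counts in EV and 1581 ± 238 in PRL3 (log2 fold change 1.15, SE 0.17, adjusted p = 0.00016). The mitochondrial protein gene C1QBP, whose product binds SAMMSON, fell by 1.61 on the log2 scale (adjusted p = 1.9e-05), the nuclear exonuclease gene XRN2 by 0.95 (adjusted p = 0.000595) and SOX10, a melanocyte lineage factor, by 0.85 (adjusted p = 0.00213). MITF, the melanocyte transcription factor gene next to SAMMSON, had a log2 fold change of 0.36 (SE 0.15, adjusted p = 0.0738) and did not pass. FOXP1, C1QBP and XRN2 stayed past the threshold in the same direction under RLE, upper-quartile, library-size and all-read scaling, whereas SOX10 lost its call with library size alone, where 3 of the 6 were higher and 2 lower.

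KCNQ1OT1 (chr11:2597308-2700003, minus strand) had 9407, 11871 and 12395 normalized counts in EV and 17635, 18305 and 16477 in PRL3. All 3 PRL3 libraries were above all EV libraries, and the log2 fold change was 0.64 (SE 0.15, adjusted p = 0.00477). KCNQ1, the potassium channel gene on the opposite strand, was counted at 11 reads at most in any library and was not tested. Of 10 genes of the imprinted domain, 7 were tested, none was higher and 6 were lower, with a median log2 fold change of -0.92. Over all tested genes 22.7% were called lower and the median was 0.11, and 31.7% of protein-coding genes were called lower. A link of these genes to the change of KCNQ1OT1 was not tested. KCNQ1OT1 itself had a log2 fold change of 0.165 with all uniquely aligned reads as the scale and did not pass (adjusted p = 0.498). CDKN1C, a cell cycle inhibitor, had 393, 546 and 444 normalized counts in EV and 88.5, 205 and 125 in PRL3 (log2 fold change -1.72, SE 0.30, adjusted p = 0.00058). PHLDA2, a growth regulator of the placenta, fell by 1.46 on the log2 scale (SE 0.18, adjusted p = 3.3e-05). TSSC4 fell by 1.13 (adjusted p = 0.000874), CD81, SLC22A18 and NAP1L4 were lower too, and TSPAN32 had a log2 fold change of 0.00. The count of lower genes in this domain was 3 with library size alone and 5 when upper quartiles were equated, and it stayed at 6 with RLE scaling and with all uniquely aligned reads.

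OIP5-AS1 (chr15:41283958-41322392, plus strand) had 2597, 1765 and 2297 normalized counts in EV and 3403, 3349 and 3583 in PRL3. The groups lay apart, the PRL3 libraries were close together, and the log2 fold change was 0.63 (SE 0.16, adjusted p = 0.00729). OIP5, a centromere protein gene that overlaps it on the opposite strand, had 1192, 1208 and 1120 normalized counts in EV and 457, 767 and 620 in PRL3 (log2 fold change -0.93, SE 0.20, adjusted p = 0.00219). Sense and antisense genes of this pair were thus called in opposite directions under TMM scaling, and the counts were made by strand. NUSAP1, a spindle protein gene on the same strand as OIP5-AS1, overlaps it in the later annotation. Reads in exons shared by both genes in the annotation used for counting would be left out of both. Whether such exons exist there was not checked. NUSAP1 fell by 0.49 on the log2 scale (adjusted p = 0.0448) but had a value of 0.02 with library size alone. NDUFAF1 and CHP1, the nearest genes on the sides, fell by 0.76 and 0.70, and ELAVL1, whose protein HuR binds OIP5-AS1, had a value of -0.17 and did not pass. With library size alone none of the 6 listed genes passed as lower.

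**Figure D3:**
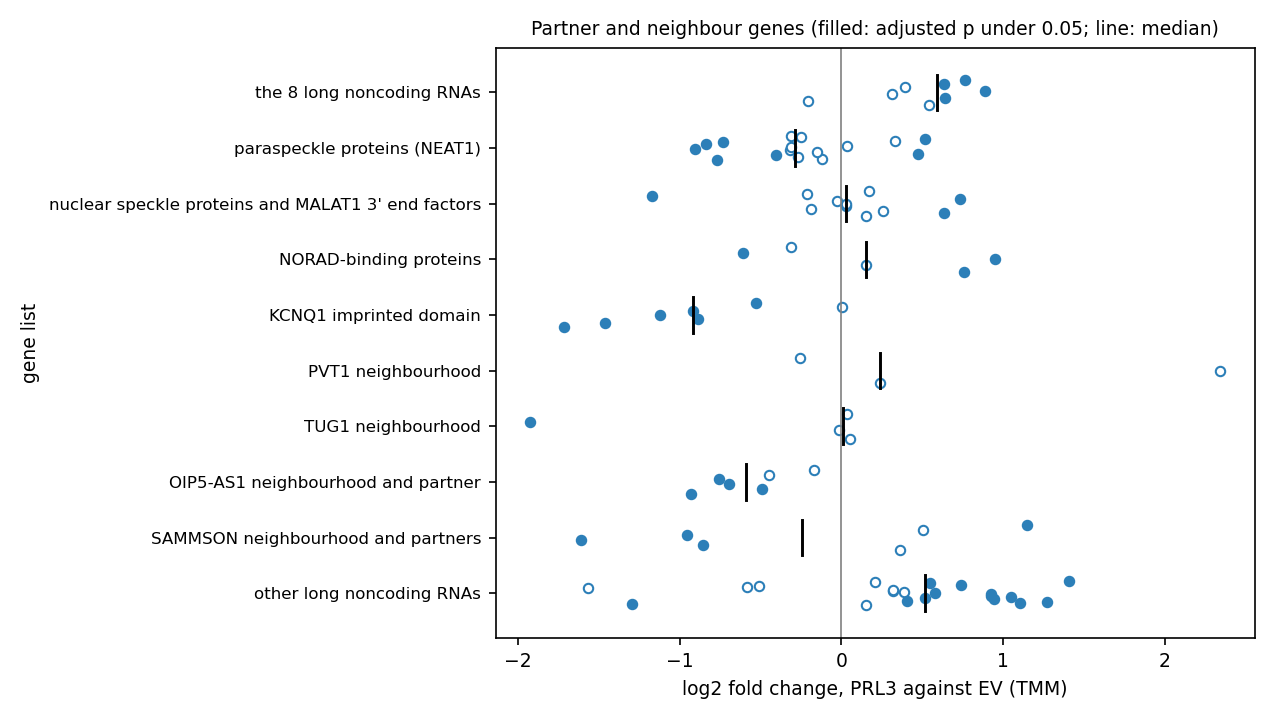
Log2 fold change, PRL3 against EV, with TMM scaling (horizontal axis) for the 8 members and for the lists of partner, neighbour and other lncRNA genes (rows), filled where the adjusted p was under 0.05, with a black line at each list's median. The KCNQ1 domain has a median of -0.92 and the members one of 0.59.

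MALAT1 (chr11:65497640-65508073, plus strand) was the most abundant member and took 64.6% to 78.8% of all member counts. Its normalized counts were 186361, 130504 and 126072 in EV and 186011, 180099 and 279619 in PRL3. EV B1 was as high as PRL3 B9 and B10, and PRL3 B11 stood above the rest, so the groups overlapped. The log2 fold change was 0.54 (SE 0.21) and did not pass (adjusted p = 0.0543; exact two-sided permutation p = 0.3). Single libraries decided this value, which was 0.75 without EV B1 (adjusted p = 0.0279), 0.66 without PRL3 B10 (adjusted p = 0.0365) and 0.32 without PRL3 B11. DESeq2 (adjusted p = 0.0362) and limma-voom (adjusted p = 0.0271) placed MALAT1 past the threshold. Of 11 nuclear speckle proteins and factors of the MALAT1 3′ end, SRRM1 (0.63) and PNN (0.73), both splicing coactivators, were higher, and HNRNPC, an RNA-binding protein gene, fell by 1.17 (adjusted p = 7.3e-05). The calls of SRRM1 and PNN were lost with all uniquely aligned reads as the scale, and that of HNRNPC was kept. SRSF1, SRSF2, SRSF3, SON and SRRM2 did not pass, with log2 fold changes of -0.19, 0.03, 0.03, 0.15 and 0.26. Over the 11 genes, 8 were higher and 1 lower with library size alone, and 0 were higher and 4 lower with all uniquely aligned reads.

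NEAT1 (chr11:65422774-65445540, plus strand) is the neighbour of MALAT1 and the only member with a log2 fold change below 0. Its normalized counts were 23286, 34522 and 35875 in EV and 25055, 25032 and 31129 in PRL3. EV B1 was the lowest library of all, EV B2 and B3 were above every PRL3 library, and the groups overlapped. The log2 fold change of -0.21 (SE 0.18) did not pass (adjusted p = 0.399), and it was -0.38 without EV B1, -0.11 without EV B2 and -0.10 without EV B3. It was 0.28 with library size alone (adjusted p = 0.209) and -0.68 with all uniquely aligned reads as the scale (adjusted p = 0.0135). Of 16 paraspeckle protein genes, 5 were lower and 2 higher, with a median of -0.29. NONO had 32282, 33064 and 26135 normalized counts in EV and 18728, 17823 and 17021 in PRL3 (log2 fold change -0.77, SE 0.15, adjusted p = 0.00127). NUDT21 and CPSF6 fell by 0.84 (adjusted p = 0.00122) and 0.73 (adjusted p = 0.00133). Their products are subunits of a factor that sets where transcripts such as NEAT1 are cleaved. CPSF7, another subunit gene of that factor, had a value of 0.33 and did not pass (adjusted p = 0.0706). DAZAP1, an RNA-binding protein gene, fell by 0.90. RBM14 (0.47) and TAF15 (0.52) were higher, while SFPQ and PSPC1 had values of -0.12 and -0.27 and did not pass. With library size alone the same list had 5 higher and 1 lower, and with all uniquely aligned reads 0 higher and 12 lower. FRMD8, the nearest protein-coding gene before this pair of lncRNA genes, fell by 0.65 (adjusted p = 0.00636) and lost its call with library size alone.

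NORAD (chr20:36045618-36051018, minus strand) is a gene of 1 exon whose RNA binds Pumilio proteins through repeated short elements. The element was searched for as TGTANATA, where N is any base, on the sense strand of merged exons. NORAD held 15 in 5401 bases, or 2.78 per kilobase, and 2 of 1966 other tested lncRNA genes with at least 2000 exon bases held more per kilobase. KCNQ1OT1 held 9, NEAT1 6, SAMMSON 5, TUG1 3, PVT1 2, OIP5-AS1 1 and MALAT1 0, and 18.1% of the other tested lncRNA genes held at least 1. The number of matches per kilobase set NORAD apart from the other members. A single match did not, since every other member but MALAT1 held the element too. The first 3 matches of NORAD from its 5′ end are shown with the bases on their sides. The element is in capitals, and coordinates are given for the element on GRCh38.
NORAD chr20:36050193-36050200, minus strand: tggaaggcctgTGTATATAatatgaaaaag
NORAD chr20:36049814-36049821, minus strand: cctcactactgTGTATATAgttgacaatgc
NORAD chr20:36049713-36049720, minus strand: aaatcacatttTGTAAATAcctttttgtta

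NORAD had 11398, 10044 and 11717 normalized counts in EV and 13755, 12774 and 14744 in PRL3. The libraries did not overlap, yet the log2 fold change of 0.32 (SE 0.14) did not pass (adjusted p = 0.0959; exact permutation p = 0.1). Among genes of NORAD-binding proteins, SAMD4A was higher at 1050 ± 52 against 542 ± 121 normalized counts (log2 fold change 0.95, SE 0.19) and SAMD4B, its relative, was lower (-0.61). PUM2, a Pumilio protein gene, had a value of 0.15 and RBMX one of -0.31, neither past the threshold. The call of SAMD4A was lost with all uniquely aligned reads as the scale, and that of SAMD4B with library size alone.

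TUG1 (chr22:30969245-30979395, plus strand), a lncRNA found in nucleus and cytoplasm and annotated as protein-coding in the release used for biotypes, had 4355, 3234 and 3661 normalized counts in EV and 5223, 4672 and 4854 in PRL3. The lowest PRL3 library was above the highest EV library, and the log2 fold change of 0.39 (SE 0.15) did not pass (adjusted p = 0.0556). Without EV B1 it was 0.51 (adjusted p = 0.0126), and limma-voom placed it past the threshold too (adjusted p = 0.0367). MORC2, a silencing factor gene that lies 471 bases from TUG1, had 1598 ± 209 normalized counts in EV and 1657 ± 101 in PRL3 (log2 fold change 0.05, adjusted p = 0.821). Of 4 listed neighbours SELENOM alone passed with TMM scaling, and it fell by 1.93 on the log2 scale (adjusted p = 3e-05). With library size alone 3 of the 4 were higher and 1 lower, and with all uniquely aligned reads 3 were lower.

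Promoter sequences of 300 bases, from 250 before to 50 after the start, were taken from RefSeq on GRCh38.p14 for 4 members, MALAT1, NORAD, TUG1 and OIP5-AS1; NEAT1, KCNQ1OT1, PVT1 and SAMMSON had no entry. They were searched on both strands for the E-box CACGTG, which MITF and MYC can bind, and for the M-box TCATGTG. NORAD, TUG1 and OIP5-AS1 each held 1 E-box and MALAT1 none in its 2 windows, while 7.26% of all 35116 promoters held one. The M-box was in none of these windows and in 2.92% of all promoters. A match is a description of the letters, and binding was not measured here. The 3 promoters are shown for this shared element, which is in capitals.
NORAD chr20:36050911-36051210, minus strand: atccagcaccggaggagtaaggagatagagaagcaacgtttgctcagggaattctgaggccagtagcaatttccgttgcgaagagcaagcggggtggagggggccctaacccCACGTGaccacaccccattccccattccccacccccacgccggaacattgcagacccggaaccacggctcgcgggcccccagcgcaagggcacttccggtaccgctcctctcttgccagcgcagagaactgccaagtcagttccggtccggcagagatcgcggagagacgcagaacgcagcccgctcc
TUG1 chr22:30969015-30969314, plus strand: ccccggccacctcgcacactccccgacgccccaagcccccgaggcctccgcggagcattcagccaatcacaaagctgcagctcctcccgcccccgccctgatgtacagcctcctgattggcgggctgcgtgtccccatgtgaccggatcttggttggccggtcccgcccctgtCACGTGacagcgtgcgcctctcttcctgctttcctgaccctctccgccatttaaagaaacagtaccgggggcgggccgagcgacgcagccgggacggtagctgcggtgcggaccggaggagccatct
OIP5-AS1 chr15:41283740-41284039, plus strand: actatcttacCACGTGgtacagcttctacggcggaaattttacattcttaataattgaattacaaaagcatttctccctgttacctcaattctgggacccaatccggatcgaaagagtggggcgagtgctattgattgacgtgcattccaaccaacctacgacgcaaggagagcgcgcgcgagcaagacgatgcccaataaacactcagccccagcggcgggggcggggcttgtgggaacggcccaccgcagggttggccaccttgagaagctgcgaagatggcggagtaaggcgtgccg

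Of these 3 members with an E-box, OIP5-AS1 was called higher, and NORAD and TUG1 did not pass. Because 4sU enters RNA in place of uridine, the share of T in the exons was also compared. It was 28.95% in MALAT1, 31.7% in NEAT1, 23.6% in KCNQ1OT1, 30.3% in NORAD and in TUG1, 27.8% in PVT1, 29.7% in OIP5-AS1 and 29.2% in SAMMSON. All members but KCNQ1OT1 were above the median of 25.7% of the other tested lncRNA genes. The part of base composition in the fold changes was not tested.

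The scaling moved every member together. The median over all tested genes was 0.11 with TMM, 0.07 with RLE, 0.29 when upper quartiles were equated, 0.60 with library size alone and -0.37 on the scale of all uniquely aligned reads. Relative to that median, PVT1 lay between 0.77 and 0.79, SAMMSON between 0.64 and 0.66, and KCNQ1OT1 and OIP5-AS1 between 0.52 and 0.53. MALAT1 lay between 0.42 and 0.44, TUG1 between 0.27 and 0.29, NORAD between 0.20 and 0.21 and NEAT1 at -0.32. A change of scaling shifts all genes by nearly the same amount, so these narrow ranges follow from the calculation. They do not show that a member's change is robust to the scaling. PVT1, SAMMSON, KCNQ1OT1, OIP5-AS1 and MALAT1 stayed above 0 under these 5 scalings, and NEAT1, NORAD and TUG1 did not keep their side of 0. With all uniquely aligned reads as the scale, 0 members were higher and NEAT1 alone was lower, and NORAD (-0.16) and TUG1 (-0.09) turned below 0. With either library size alone or equated upper quartiles, 7 members were higher, all but NEAT1.

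**Figure D4:**
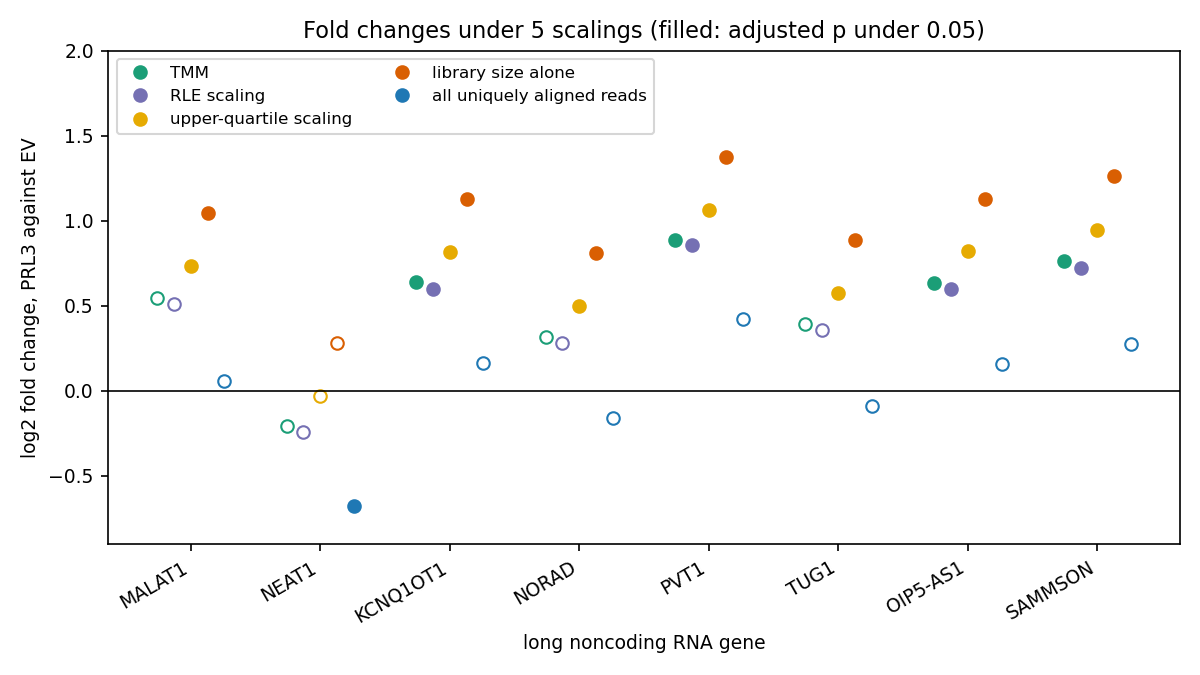
Log2 fold change, PRL3 against EV (vertical axis), of each member under 5 scalings, shown by colour and filled where the adjusted p was under 0.05. Within each gene the values step from library size alone at the top to all uniquely aligned reads at the bottom, and NEAT1 is the lowest member under each of the 5.

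The same dependence is seen without a model in the share of each library. The 8 members took 0.417%, 0.337% and 0.371% of gene counts in EV and 0.681%, 0.592% and 0.895% in PRL3, and the groups lay apart (exact two-sided permutation p = 0.1). Of all uniquely aligned reads they took 0.232% ± 0.036 (SD, n = 3) in EV and 0.227% ± 0.043 in PRL3, with overlapping libraries (exact permutation p = 0.9). The 6 members other than MALAT1 and NEAT1 summed to 0.0341% ± 0.00031 of uniquely aligned reads in EV and 0.0353% ± 0.00092 in PRL3. Every PRL3 library was above every EV library on this scale (exact permutation p = 0.1). The share of gene counts taken by these 6 was 0.0555% ± 0.0067 in EV and 0.112% ± 0.0076 in PRL3. NEAT1 went from 0.0344% ± 0.0070 of uniquely aligned reads in EV to 0.0214% ± 0.0025 in PRL3, with every PRL3 library below every EV library (exact permutation p = 0.1). All lncRNA genes together took 2.16% ± 0.29 of gene counts in EV and 4.61% ± 0.30 in PRL3, and the members were 13.8% to 20.6% of that sum.

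**Figure D5:**
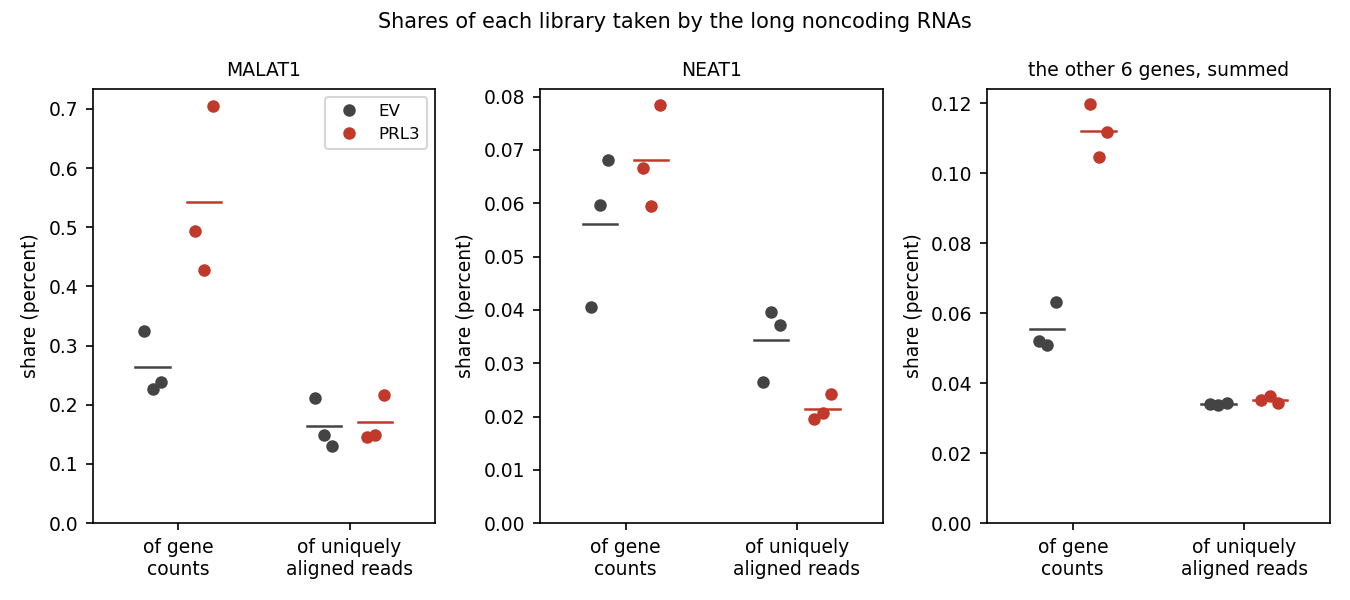
Share in percent of gene counts and of all uniquely aligned reads taken by MALAT1, by NEAT1 and by the other 6 members together, 1 point per library with a line at the mean of 3, EV in grey and PRL3 in red. The sum of the 6 lies between 0.0338% and 0.0363% of uniquely aligned reads in all 6 libraries. On that scale the sum is higher, and NEAT1 lower, in every PRL3 library than in any EV library.

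Ratios between members within a library do not depend on scaling. Against MALAT1, all 7 other members had overlapping libraries, and no ratio passed (exact permutation tests, Benjamini-Hochberg adjusted p = 0.8 each). Against NEAT1, a reference added after the values were seen, the log2 ratio of PVT1 was -3.63, -3.97 and -3.60 in EV and -2.47, -2.50 and -2.91 in PRL3, a rise of 1.10. The ratios of SAMMSON (0.95), OIP5-AS1 (0.84) and KCNQ1OT1 (0.84) to NEAT1 were also higher in every PRL3 library than in any EV library, each with exact permutation p = 0.1 and an adjusted p of 0.175. Those of MALAT1, NORAD and TUG1 to NEAT1 overlapped between the groups. Against NORAD, PVT1 (0.60), SAMMSON (0.45) and OIP5-AS1 (0.34) did not overlap (adjusted p = 0.233 each by the exact permutation test).

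The other lncRNA genes with 1 exon in every transcript had a median log2 fold change of 0.76 over 1225 genes, and those with 2 or more exons one of 0.69 over 3539 genes. Of the 197 other lncRNA genes with a mean of at least 1000 normalized counts, a class added after the values were seen, 65.5% were called higher and 4.57% lower. Of 25 other named lncRNA genes, 23 were matched and 21 tested, of which 12 were higher and 1 lower, with a median of 0.52. With library size alone 17 of the 21 were higher and 1 lower, and with all uniquely aligned reads 4 were higher and 3 lower. MIAT, first known from the heart, was higher at 1105 ± 200 against 417 ± 32 normalized counts (log2 fold change 1.41, adjusted p = 8.5e-05), as was UCA1 (1.27, adjusted p = 0.000273), a lncRNA known from bladder cancer. H19, an imprinted gene near the KCNQ1 domain, fell by 1.30 (adjusted p = 0.000274), and DANCR had a value of 0.15 (adjusted p = 0.399). MIAT, UCA1 and H19 kept their calls under all 4 other scalings. Of 4 small abundant noncoding RNA genes, RN7SK, RMRP and RPPH1 were listed at 0 in every library and TERC, at 113 reads or fewer in each library and with overlapping groups, was called higher (1.70, adjusted p = 0.038), a call lost with all uniquely aligned reads and with limma-voom.

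Over the 13 tested of 14 nearest protein-coding neighbours, 1 was higher (FOXP1) and 5 were lower, with a median log2 fold change of -0.23. By profile over the 6 libraries, among 15152 genes with a mean of at least 100 normalized counts, the genes nearest to MALAT1 were SLC36A4 and FSD1L, with root mean square log2 distances of 0.05 and 0.06. NEAT1 was nearest to LAMA2 and C17orf49 (0.07 each), KCNQ1OT1 to FICD (0.04), NORAD to USP3 (0.04), TUG1 to METTL2A (0.04), PVT1 to the lncRNA gene SMC5-DT among genes with a symbol (0.04), OIP5-AS1 to PTCD3 (0.02) and SAMMSON to FAM13A among genes with a symbol (0.06). Many genes had profiles this close, since 34 lay within 0.15 of NEAT1 and 812 within 0.15 of NORAD.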

How the data were processed

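The deposited files hold whole-number counts per Ensembl gene, not normalized, which the authors made by aligning paired reads to GRCh38 with STAR 2.5.1b and counting with HTSeq 0.6.1 on the reverse strand against Ensembl release 91. FastQC 0.11.3 is named in the submitters' processing notes. The same files tally reads outside annotated exons, ambiguous reads and multiply aligned reads; these 5 tallies were kept out of library sizes, and reads outside exons were 28.7% to 69.1% of uniquely aligned reads. Multiply aligned reads were not counted, so genes with near-identical copies can be too low.

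The members, gene lists and tests were chosen with earlier results of these data known. Identifiers were matched to GENCODE release 44, on the same build but later (57532 of 58243). In R 4.3.3, edgeR 4.0.16 compared PRL3 with EV by the quasi-likelihood test with TMM scaling, the filterByExpr filter and Benjamini-Hochberg adjustment over 23884 genes at 0.05; adjusted p-values are from this test unless another is named. For normalized counts, each library was scaled to the mean effective library size. Levels are counts per kilobase of merged exon per 1000000 gene counts. Errors after ± are SD over 3 libraries. Ratios added 0.5 to each count. Exact permutation tests were two-sided. The procedure was tested on simulated data in which few genes changed, as many up as down. That test cannot judge the scaling of these libraries. Alternatives were library-size, RLE and upper-quartile scaling, all uniquely aligned reads (gene, outside-exon and ambiguous) as library size, lncRNA genes only, DESeq2 1.42.0, limma-voom (limma 3.58.1), other filters, an adjusted p of 0.01 and leaving out each library. No pair of the 6 libraries was alike within sampling noise (lowest mean chi-square per gene 24.7). The replicate numbers of the groups differ, so none were paired. Genes named beyond the members are PTP4A3, up to 3 genes of each list with the smallest adjusted p past the threshold and 1 with the largest, annotated neighbours, and the 2 genes nearest in profile to each member; other listed genes were named after their values were seen. Some genes of the lists are not reported here.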

Additional observations from a re-analysis of the deposited data

Results flagged for a closer look

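Reads outside annotated exons, which no gene count holds, made up 33.32% of uniquely aligned reads on average in EV and 66.27% in PRL3, a signal outside the main measurement that was above its level in the control libraries. These reads can include introns, unannotated transcripts and the strand opposite to a gene, and the tallies do not tell these apart. The levels of MALAT1 and NEAT1 in single libraries were not tested for outliers, since each group has 3 libraries.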

How the results depend on the processing

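No paired analysis was possible because the replicate numbers of the groups (1, 2 and 3 against 9, 10 and 11) share 0 values. The scaling decided the calls. The number of members higher was 7 with library size alone, 7 when upper quartiles were equated, 0 with all uniquely aligned reads and 0 when scaling and testing used lncRNA genes only, against 4 with TMM scaling, and 4 to 6 when each library was left out. The number lower was 1 (NEAT1) with all uniquely aligned reads and 1 (NEAT1, log2 fold change -0.87, adjusted p = 0.00435 by edgeR) with lncRNA genes only, and 0 with each library left out. The median of the members was 1.09 (library size alone), 0.10 (all uniquely aligned reads) and -0.11 (lncRNA genes only), and 0.49 to 0.64 with each library left out. With lncRNA genes only, MALAT1 turned to -0.17, KCNQ1OT1 to -0.034, NORAD to -0.37, TUG1 to -0.30 and OIP5-AS1 to -0.055; NEAT1 turned to 0.28 with library size alone, and NORAD to -0.16 and TUG1 to -0.09 with all uniquely aligned reads. The difference in share between PRL3 and EV turned to -0.006 percentage points for the members and -0.007 for MALAT1 with NEAT1 when all uniquely aligned reads were the denominator. These settings differ by construction in what they hold constant; which of them is right for these libraries was not tested. With each library left out, the log2 difference of the ratio to MALAT1 ranged from -0.192 to 0.356 for KCNQ1OT1 (0.11 with all), below 0 without EV B1 and without PRL3 B10, and from -0.272 to 0.075 for TUG1 (-0.14 with all), above 0 without PRL3 B11; with NORAD as the reference TUG1 was at 0.083. The cause was not tested. RLE scaling, DESeq2, limma-voom, other filters and an adjusted p of 0.01 kept the number of members higher within 1.5 times of 4. Depth limits SAMMSON most, at 253 reads in its lowest library, and no deposited count tells exon from intron or names an isoform.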
